A study of Homo sapiens with 21 samples.

Results

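The 40 genes described here carry a dividing cell through DNA replication and mitosis. They were taken by symbol from the 62656 genes of the raw count table, 18 as S phase genes (DNA replication and the G1/S switch) and 22 as G2/M genes (preparation for division and mitosis). All 40 were matched to a single Ensembl gene, and all 40 passed the filter on low counts that left 24879 genes to test. RNA was measured in SH-SY5Y, a human neuroblastoma line labelled as wild type and differentiated for 11 days to neuronal-like cells, in 7 groups of 3 libraries. Besides the control, the groups were cells exposed for 24 h to 30 µM of PFOA or the longer-chained PFDA, both perfluoroalkyl carboxylic acids, of PFOS or the longer-chained PFDS, both sulfonic acids, or of the fluorotelomer compounds 8:2 FTS, a sulfonic acid, and 8:2 FTOH, an alcohol. The treatment solutions held 1% methanol, and the sources used here do not say what the controls received. SH-SY5Y is a single tumour line, so the cells model neither a normal neuron nor more than 1 donor. The labels do not say that the 3 libraries of a group came from separate cultures, so each p-value covers the spread among the deposited libraries and no more, and that spread may be technical.

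Entry into S phase is driven by cyclin E with its kinase and by E2F transcription factors, which switch on the genes for origin licensing, the replicative helicase, nucleotide supply and the replication fork. After replication, cyclins A and B with CDK1 and the transcription factors B-MYB and FOXM1 switch on the genes of mitosis: kinases that time it, motors that move chromosomes, and the checkpoint that holds the cell until every chromosome is attached. Neurons leave the cycle for good when they differentiate, and in most differentiated cells these transcripts are low; neuroblastoma cells are tumour cells in which differentiation protocols leave a varying share of cells in the cycle. In bulk RNA, fewer cycling cells and less RNA per cycling cell cannot be told apart.

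The libraries held 7680024 to 30429746 counts (median 14633793), and the controls, with 22179910 to 24905803, were all above that median. The 40 genes together took 0.511 to 0.596% of the counts of a library, and the smallest count of any of them in any library was 76. Correlations of log2 CPM (counts scaled to library size, after the normalization named TMM) within groups ran from 0.967 to 0.989. The mitochondrial share of counts was 6.33% in control replicate 3 and 6.11% in 8:2 FTOH replicate 3, against 3.37 to 5.40% in the other 19 libraries. The labelled cell type was checked against markers: neuronal STMN2, ELAVL4 and NEFL and adrenergic DBH and HAND2 were abundant in the controls (636 CPM for NEFL), while TH, which encodes the first enzyme of catecholamine synthesis, was at 0.592 CPM and RBFOX3, a marker of mature neurons, at 1.68. Of the Schwann and glial markers FOXD3 was at 0 in all 21 libraries, and the 7 genes of that list summed to 10.1 to 16.3 CPM.

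Cell cycle transcripts were abundant in the controls. On the scale of RPKM (CPM per kilobase of gene length), the fork clamp gene PCNA was highest at 107 ± 10.6 (SD, n = 3), which placed it at percentile 99.1 of the genes tested. It was followed by TOP2A, the topoisomerase that untangles replicated chromosomes, at 85.8 ± 7.94, MYBL2 (B-MYB) at 75.1 ± 7.30, MCM7 at 72.3 ± 5.71 and the proliferation marker MKI67 at 66.7 ± 2.51. MYBL2 differed from TOP2A and from MCM7 by less than their combined spread. Cyclin E2 (CCNE2) was lowest, at 2.85 ± 0.265 RPKM (percentile 51.4), followed by the CDK1-activating phosphatase gene CDC25C at 5.27 ± 0.427 and cyclin E1 (CCNE1) at 7.44 ± 0.666, and these 3 were apart by more than their spread.

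**Figure D1:**
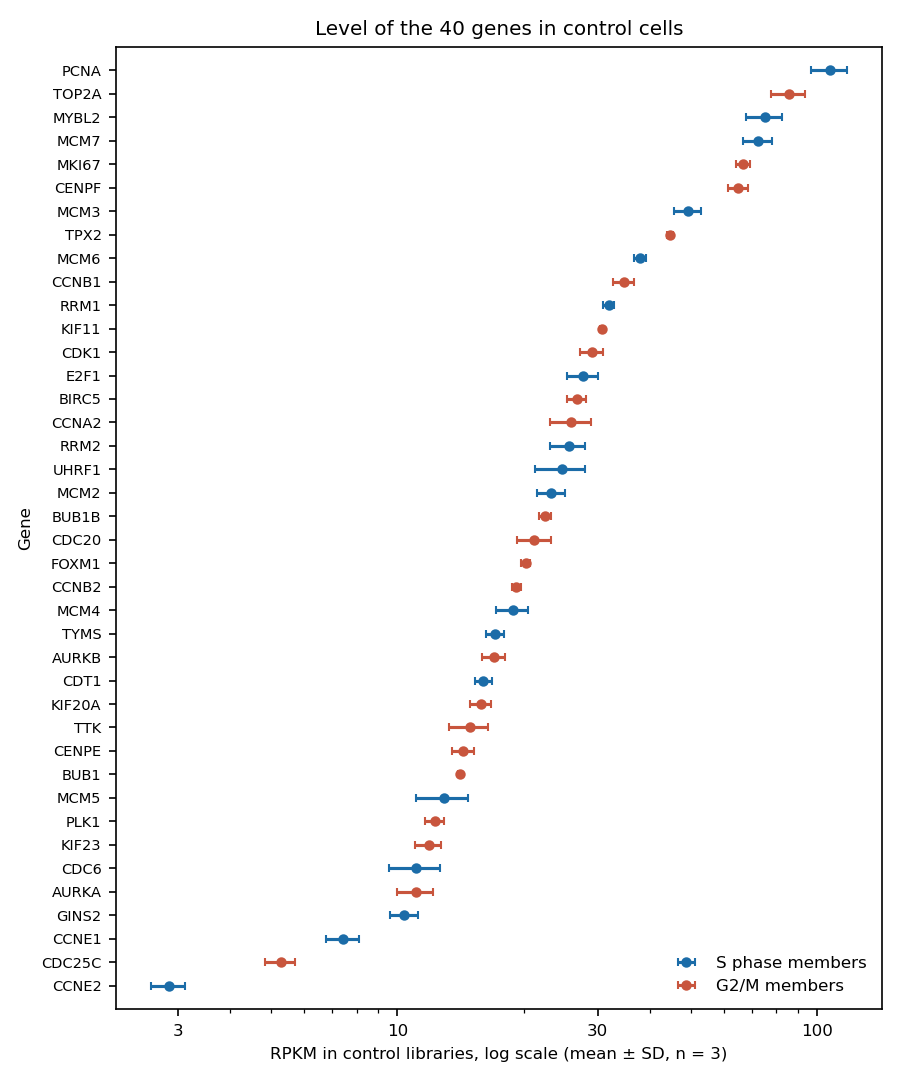
Level of each of the 40 genes in the 3 control libraries, in RPKM on a log scale (point: mean, bar: SD, n = 3), with S phase genes in blue and G2/M genes in red. PCNA is highest at 107 and CCNE2 lowest at 2.85, and the 2 colours are mixed over the whole range.

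Among genes of a shared machine, levels per length differed. The 6 subunits of the MCM helicase, which unwinds DNA ahead of the fork as a ring with each subunit present in equal number, ran from MCM7 at 72.3 RPKM through MCM3 at 49.2, MCM6 at 37.9, MCM2 at 23.3 and MCM4 at 18.8 to MCM5 at 12.9 ± 1.81. The length used is that of all exons of a gene, so a gene with long rarely used exons is given too low a level. Reads in exons shared with another gene were dropped, which also lowers a level. Shared were 23.6% of the length of MCM2 and 8.94% of that of MCM7. RRM1 and RRM2, the large and small subunits of ribonucleotide reductase, were at 31.9 ± 0.987 and 25.6 ± 2.42. Among the mitotic cyclins, CCNB1 was at 34.7 ± 1.96, CCNA2 at 25.998 ± 2.90 and CCNB2 at 19.2 ± 0.453, with their kinase CDK1 at 29.04 ± 1.81. Of the regulators, the kinase genes BUB1B, AURKB, TTK, BUB1, PLK1 and AURKA lay between 22.5 and 11.1, the licensing genes CDT1 and CDC6 at 16.03 and 11.1, and GINS2, a part of the active helicase, at 10.4.

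The S phase and G2/M genes are switched on through different promoter motifs, and the RefSeq promoters of the members were searched for them. The windows run from 250 bases before the start to 50 after it, and 15 of 18 S phase and 17 of 22 G2/M genes had one; CCNE2, MCM4, MCM5, AURKA, TTK, TPX2, BIRC5 and FOXM1 are named only. Printed below, for 3 S phase and 2 G2/M genes whose values in every library follow, each holding the motif of its class, are the 250 bases before the start, 5′ to 3′ along the gene in GRCh38.p14, in capitals where a searched motif matched on either strand. In TYMS, CDT1 and PCNA the capitals GCGGGAA mark the E2F site (TTCCCGC read on the other strand), and in PCNA the capitals CCAAT, or ATTGG in reverse, mark the CCAAT box. In PLK1 and MKI67 the capitals TTTGAA mark the CHR element, the site of the complex that silences mitotic genes outside G2/M, and the CCAAT box is marked as in PCNA; in MKI67 the last CHR element and CCAAT box overlap. The TYMS window is chr18:657403-657652 (plus strand), CDT1 chr16:88803539-88803788 (plus), PCNA chr20:5126623-5126872 (minus), PLK1 chr16:23678639-23678888 (plus) and MKI67 chr10:128126424-128126673 (minus).
TYMS: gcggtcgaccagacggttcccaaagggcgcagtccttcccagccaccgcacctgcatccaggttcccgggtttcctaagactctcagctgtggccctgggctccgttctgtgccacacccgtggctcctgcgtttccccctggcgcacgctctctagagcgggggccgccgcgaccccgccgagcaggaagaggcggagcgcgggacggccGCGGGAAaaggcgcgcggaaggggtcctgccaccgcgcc
CDT1: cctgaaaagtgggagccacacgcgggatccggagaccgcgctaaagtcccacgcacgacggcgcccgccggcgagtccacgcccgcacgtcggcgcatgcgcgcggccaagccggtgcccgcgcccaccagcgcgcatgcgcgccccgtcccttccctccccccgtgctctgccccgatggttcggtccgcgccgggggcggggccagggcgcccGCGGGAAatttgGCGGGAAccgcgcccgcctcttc
PCNA: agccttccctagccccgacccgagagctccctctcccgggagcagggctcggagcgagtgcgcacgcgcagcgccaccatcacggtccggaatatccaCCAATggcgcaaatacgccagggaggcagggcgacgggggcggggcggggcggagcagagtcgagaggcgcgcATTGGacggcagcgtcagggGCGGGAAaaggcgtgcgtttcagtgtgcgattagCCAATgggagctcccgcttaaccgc
PLK1: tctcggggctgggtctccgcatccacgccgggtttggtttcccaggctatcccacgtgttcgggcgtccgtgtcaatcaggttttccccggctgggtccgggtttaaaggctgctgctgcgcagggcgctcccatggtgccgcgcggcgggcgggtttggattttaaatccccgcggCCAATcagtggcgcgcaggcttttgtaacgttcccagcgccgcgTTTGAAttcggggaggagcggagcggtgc
MKI67: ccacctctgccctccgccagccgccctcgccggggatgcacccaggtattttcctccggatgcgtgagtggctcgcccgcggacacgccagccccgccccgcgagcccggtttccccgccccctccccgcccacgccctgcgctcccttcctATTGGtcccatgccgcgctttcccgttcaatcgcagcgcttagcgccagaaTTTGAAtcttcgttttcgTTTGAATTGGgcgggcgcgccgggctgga

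An E2F site (TTCCCGC, its form TTCGCGC, its form TTGGCGC or its form TTGCCGC, on either strand) was found in 12 of 15 S phase promoters (80.0%) and 3 of 17 G2/M promoters (17.6%), against 12.97% of 35116 promoters in the table. The CHR element (TTTGAA or TTCGAA) was found in 11 of 17 G2/M promoters (64.7%) and 2 of 15 S phase promoters (13.3%), against 16.4% of all. A CCAAT box (CCAAT) was found in 82.4% of G2/M and 66.7% of S phase promoters and 34.6% of all, and CHR element and CCAAT box together in 58.8, 13.3 and 6.38%. For other genes of the cycle, from lists described below, an E2F site was in 27 of 42 S phase promoters (64.3%) and 17 of 47 G2/M promoters (36.2%). A CHR element was in 2 of those S phase promoters (4.76%) and 35 of those G2/M promoters (74.5%). The S phase promoters with an E2F site were those of E2F1, MCM2, MCM3, MCM6, MCM7, PCNA, TYMS, RRM1, CDC6, CDT1, GINS2 and UHRF1. The G2/M promoters with a CHR element were those of MKI67, TOP2A, PLK1, CCNB2, CDK1, CDC20, BUB1, BUB1B, CENPF, KIF11 and KIF23. CCNE1, MYBL2 and CENPE had no match in the window. The members are counted by their first promoter entry, while the 35116 hold every entry of every gene. A match describes letters and no binding.

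No member passed an adjusted p of 0.05 (edgeR's quasi-likelihood test, Benjamini-Hochberg over 24879 genes) with any of the 6 compounds, in either direction. Few genes of any kind did: 0.0322% of all genes tested with PFOA, 0.0241% with PFOS, 0.00804% with PFDA, 0.0241% with PFDS, 0.0844% with 8:2 FTS and 0.0322% with 8:2 FTOH. At an unadjusted p under 0.05, 10 of the 40 members were lower with PFOA, 12 with PFOS, 13 with PFDA, 1 with PFDS, 10 with 8:2 FTS and 7 with 8:2 FTOH, and none was higher with any of them. Of all genes tested 5.6, 3.57, 4.39, 3.03, 4.2 and 4.28% were lower at that threshold in the same order of compounds, and 4.46, 3.26, 4.04, 2.56, 3.57 and 3.55% higher. Of genes with at least 10 CPM 10.4, 5.81, 8.34, 3.99, 6.81 and 6.93% were lower, so the PFDS count is below both shares. With PFDS the smallest edgeR adjusted p of a member was 0.799, and 0.0573 without PFDS replicate 3. It was 0.811 and 0.967 without PFDS replicates 1 and 2. None of these fits called a member, and the fit without replicate 3 called 0.39% of all genes tested. DESeq2 called 2 members, PLK1 and MKI67, both lower with PFOA (adjusted p = 0.00487 and 0.0179), and none with the other 5 compounds. Of all genes tested it called 0.514, 0.0764, 0.0924, 0.137, 0.197 and 0.237%, in the same order of compounds. The 3 PFOA libraries were also below all controls in the summed level of 17 mesenchymal markers (396 to 451 against 462 to 501 CPM) and of 9 adrenergic markers (3364 to 3715 against 3718 to 4150), and the part of these markers in the PFOA values was not tested. The edgeR adjusted p of PLK1 was 0.0661, and over the alternatives the smallest adjusted p of any member with PFOA ran from 0.00458 to 0.610.

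Estimates lay below 0 for most members and were small. Of the 240 estimates (40 genes, 6 compounds), 217 were negative, and they ran from -0.42 to 0.18 on the log2 scale. All 240 confidence intervals (95%) lay within a 2-fold change, and 239 within 1.5-fold. The number of negative estimates was 33 of 40 with PFOA, 38 with PFOS, 38 with PFDA, 33 with PFDS, 39 with 8:2 FTS and 36 with 8:2 FTOH. With PFDS it was 26 without PFDS replicate 1, 25 without replicate 2 and 39 without replicate 3. Over all genes tested 48.2 to 49.5% were negative, and over the 11157 genes with at least 10 CPM, the level of nearly all members, 51.2 to 61.5%. All 6 comparisons use the same 3 control libraries, so a control library that is high for a gene lowers that gene's estimate for every compound. Scaling by library size alone, which moves the median of all genes to between 0.0274 and 0.0775, left 26, 37, 32, 27, 36 and 33 negative, in the same order of compounds.

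**Figure D2:**
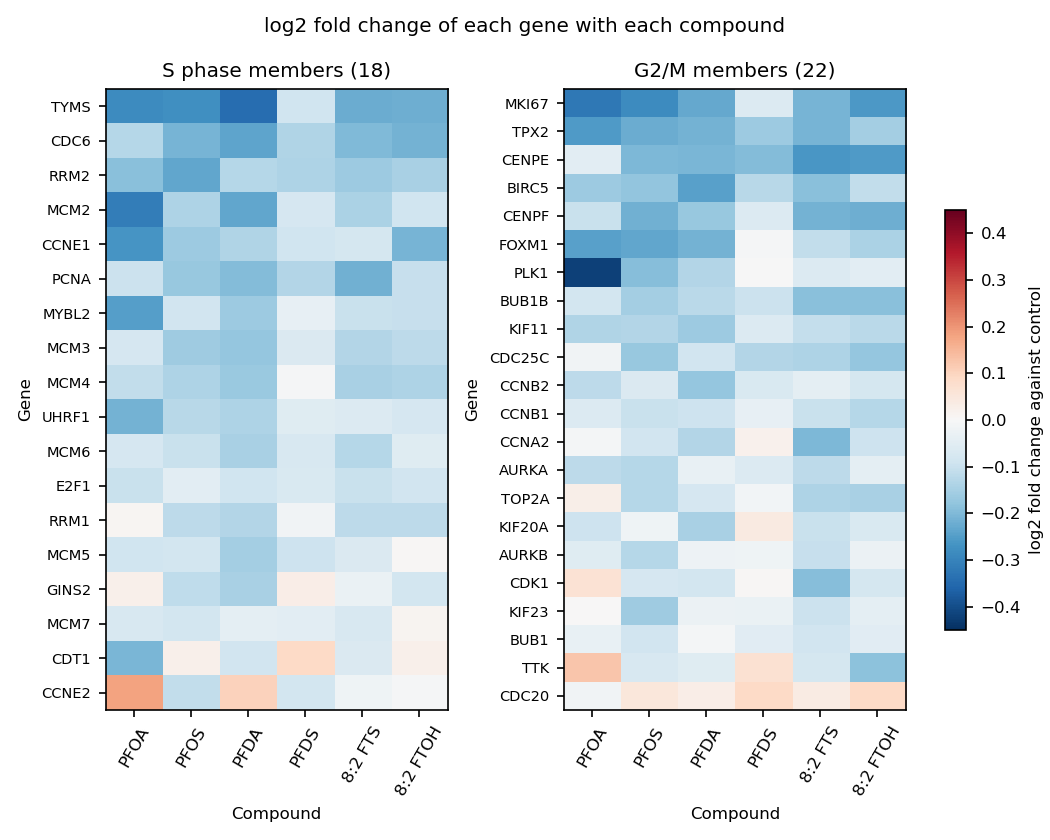
log2 fold change against control of the 18 S phase genes (left) and the 22 G2/M genes (right) with each compound, each panel sorted by its mean over compounds; blue is lower and red higher than control. Most cells are pale blue, the PLK1 value with PFOA (-0.42) is the darkest, and CDC20 at the bottom right is above 0 with 5 of 6 compounds; none passed the test.

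With all libraries in the fit, the medians of S phase and G2/M genes differed by at most 0.0346 with any compound, and leaving out 1 library moved that limit to as much as 0.109. The median log2 fold change of the 18 S phase genes was -0.11 with PFOA, -0.12 with PFOS, -0.15 with PFDA, -0.07 with PFDS, -0.11 with 8:2 FTS and -0.10 with 8:2 FTOH. That of the 22 G2/M genes was -0.07, -0.13, -0.13, -0.05, -0.11 and -0.12 in the same order. The S phase median minus the G2/M median was -0.03, 0.01, -0.02, -0.03, 0.0038 and 0.02. With each library left out in turn it ran from -0.109 to 0.021 with PFOA, -0.0554 to 0.0633 with PFOS, -0.0803 to 0.0115 with PFDA, -0.0741 to 0.029 with PFDS, -0.0479 to 0.0702 with 8:2 FTS and -0.0482 to 0.0467 with 8:2 FTOH, so its sign was not fixed for any compound. The lowest value came without control replicate 3, or with 8:2 FTS without its replicate 3. The highest came without control replicate 1 for the 4 perfluoroalkyl acids, without replicate 2 of 8:2 FTS and without replicate 3 of 8:2 FTOH. The class medians themselves stayed below 0 with each library left out, the S phase median from -0.187 to -0.0678 with PFOA, -0.188 to -0.0794 with PFOS, -0.216 to -0.109 with PFDA, -0.115 to -0.0165 with PFDS, -0.204 to -0.0435 with 8:2 FTS and -0.175 to -0.0419 with 8:2 FTOH. The G2/M median ran from -0.1 to -0.0445, -0.164 to -0.097, -0.137 to -0.0755, -0.0987 to -0.0011, -0.156 to -0.103 and -0.184 to -0.0797 in the same order. Moves of a median by over 1.5 times came without each control replicate, PFOS replicate 1, each PFDS replicate, 8:2 FTS replicates 2 and 3, and 8:2 FTOH replicates 1 and 3. The difference does not depend on how libraries are scaled by a common factor. With PFOA the G2/M median rests on the scaling: with library size alone it was -0.0027.

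Library by library, the same comparison was made with the mean log2 CPM of each class, set to 0 at the control mean. The S phase minus G2/M value was 0.10, 0.02 and -0.12 in the controls, so the controls alone spanned most of the range seen. It was -0.07, -0.02 and -0.0041 with PFOA, -0.02, 0.01 and 0.03 with PFOS, and -0.02, -0.04 and -0.01 with PFDA. It was 0.04, -0.03 and -0.05 with PFDS, -0.01, -0.08 and 0.13 with 8:2 FTS, and 0.08, 0.02 and -0.04 with 8:2 FTOH. Of the 18 compound libraries, 8:2 FTS replicate 3 alone lay outside the range of the controls. Control replicate 3, which has the highest mitochondrial share, was the low control for S phase genes, at -0.12 against 0.04 and 0.08, and lay at -0.003 for G2/M genes, between -0.06 and 0.06. The G2/M level of 17 of the 18 compound libraries was below the mean of the controls and that of PFDS replicate 3 above it, at 0.07, while the S phase level of 3 compound libraries (PFDS replicate 3, 8:2 FTOH replicate 1 and 8:2 FTS replicate 3) was above it. What part depth and mitochondrial share have in these values was not tested.

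**Figure D3:**
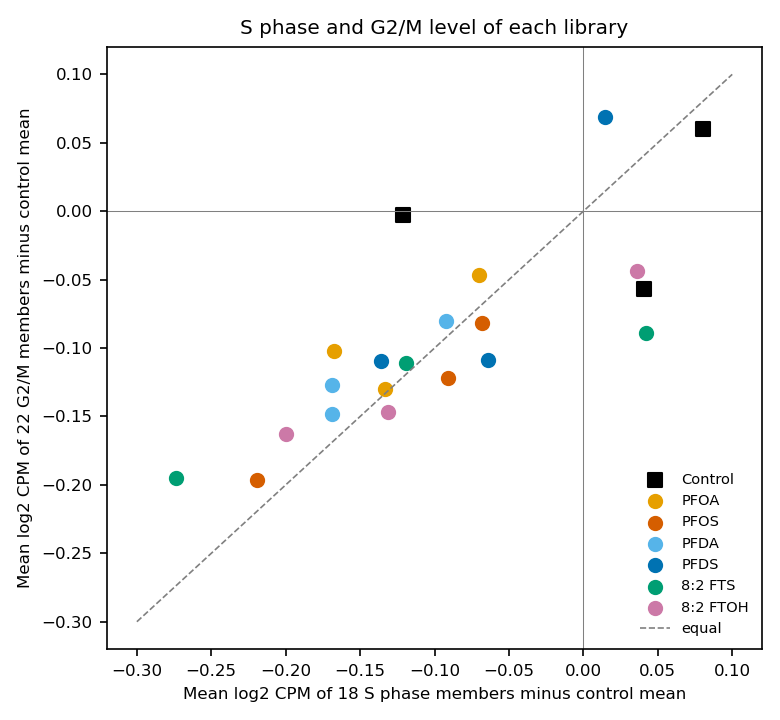
Mean log2 CPM of the 18 S phase genes (x axis) against that of the 22 G2/M genes (y axis) in each of the 21 libraries, both minus the mean of the controls (black squares); the dashed line marks equal shifts. Most compound libraries lie near the line and below 0, and the 3 controls, from -0.12 to 0.08 on the x axis, are spread as widely as many compound groups.

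Some members had all 3 libraries of a compound outside the range of the controls. All 3 PFOA libraries were below all 3 controls for 4 of 18 S phase and 7 of 22 G2/M genes, against 8.46% of all genes tested, and above them for 1 member, CCNE2, against 7.45%. With PFOS 2 S phase and 10 G2/M genes were below (7.41% of all genes below, 6.62% above), and with PFDA 7 and 8 (7.85% below, 7.92% above). With PFDS the counts were 0 and 2 (4.53% below, 3.72% above), with 8:2 FTS 1 and 9 (7.17% below, 6.64% above), and with 8:2 FTOH 2 and 6 (6.98% below, 5.95% above). With these 5 compounds no member was above the controls. Among genes of at least 10 CPM the share below the controls was above that of all genes except with PFDS, at 13.7% with PFOA, 11.02% with PFOS, 13.3% with PFDA, 4.23% with PFDS, 10.3% with 8:2 FTS and 9.74% with 8:2 FTOH. The corresponding counts over both classes were 11, 12, 15, 2, 10 and 8 of 40 members. Control replicate 3, with its low S phase level, is among the 3 controls behind every count.

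Among the S phase genes TYMS had the lowest estimate over the 6 compounds together. TYMS, which encodes thymidylate synthase, the enzyme that makes the thymine nucleotide for DNA and whose promoter above holds an E2F site, was at 40.4, 43.8 and 40.2 CPM in the controls, 32.99, 37.6 and 31.8 with PFOA, 31.2, 38.4 and 33.7 with PFOS and 33.5, 31.8 and 32.7 with PFDA. The values with PFDS were 41.1, 36.4 and 39.3, with 8:2 FTS 35.1, 33.9 and 37.5 and with 8:2 FTOH 38.5, 32.96 and 35.7. Apart from PFDS, whose libraries overlap the controls, every compound library was below every control. The log2 fold change was largest with PFDA, at -0.34 ± 0.093 (SE, edgeR adjusted p = 0.272), and was -0.28 with PFOA, -0.27 with PFOS, -0.22 with 8:2 FTS and with 8:2 FTOH, and -0.09 with PFDS. The exons of TYMS share 39.9% of their length with ENOSF1 on the other strand, and reads there were counted for neither gene. RRM2, which supplies deoxynucleotides, had estimates of -0.19 with PFOA, -0.24 with PFOS and -0.13 to -0.16 with the others, and its libraries overlapped the controls.

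PCNA, the sliding clamp of the replication fork, was at 149.7, 166 and 136 CPM in the controls, 138, 147 and 138 with PFOA, 124, 142 and 136 with PFOS and 125, 125 and 144 with PFDA. It was at 141, 121 and 151 with PFDS, 127, 122 and 141 with 8:2 FTS and 158, 128 and 134 with 8:2 FTOH. Every group overlaps the controls, and each has at least 1 library above control replicate 3. Its smallest p was with 8:2 FTS (-0.21 ± 0.086, edgeR adjusted p = 0.494).

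Of the helicase and licensing genes, MCM2 was at 108, 119 and 103 CPM in the controls, 80.7, 94.2 and 90.1 with PFOA, 89.1, 110.1 and 101 with PFOS and 90.9, 91.5 and 97.97 with PFDA. It was at 98.1, 97.6 and 116 with PFDS, 94.6, 91.4 and 113 with 8:2 FTS and 114, 107 and 87.8 with 8:2 FTOH. The PFOA and PFDA libraries were all below the controls, with log2 fold changes of -0.31 ± 0.093 (edgeR adjusted p = 0.196) and -0.23 ± 0.092 (edgeR adjusted p = 0.490), and the other groups overlap them. The exons of MCM2 share 23.6% of their length with an unnamed gene on the other strand, and reads there were counted for neither gene. The other subunits were nearer to 0 than MCM2 with PFOA and with PFDA. MCM3 had -0.16 with PFOS and -0.17 with PFDA, and MCM7, the subunit at the highest level, ran from -0.08 to 0.01. CDC6, which loads the helicase onto origins, had -0.24 with PFDA, -0.21 with PFOS and 8:2 FTOH, -0.20 with 8:2 FTS and -0.13 to -0.14 with PFOA and PFDS.

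CDT1, the partner of CDC6 in licensing, was at 44.99, 45.8 and 41.9 CPM in the controls, 39.5, 35.3 and 40.2 with PFOA, 44.4, 46.6 and 43.9 with PFOS and 40.01, 36.2 and 48.1 with PFDA. The other 3 groups were at 39.1, 48.1 and 53.2 with PFDS, 43.5, 39.1 and 44.3 with 8:2 FTS and 46.8, 45.4 and 42.1 with 8:2 FTOH. PFOA was the group in which all libraries were below the controls, while PFDS replicate 3 was the highest of all 21. The estimates were -0.20 with PFOA and from -0.09 to 0.09 with the others.

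CCNE2, a cyclin of the G1/S switch, was at 11.4, 13.7 and 12.6 CPM in the controls, 14.9, 14.04 and 13.8 with PFOA, 11.3, 11.1 and 12.5 with PFOS and 14.3, 13.4 and 12.8 with PFDA. The remaining values were 13.8, 11.3 and 10.8 with PFDS, 13.7, 11.6 and 11.7 with 8:2 FTS and 17.04, 10.6 and 9.83 with 8:2 FTOH. The 3 PFOA libraries were above the 3 controls, and the highest and the lowest of the 21 values are both in the 8:2 FTOH group. Its estimates ran from -0.11 with PFOS to 0.18 with PFOA, the highest of the 240. CCNE2 shares 37.05% of its exon length with INTS8 on the other strand. The transcription factor genes listed with the S phase genes, E2F1 and MYBL2, had negative estimates with all 6 compounds. They ran from -0.10 to -0.05 for E2F1 and from -0.25 to -0.04 for MYBL2. The remaining S phase genes, CCNE1, UHRF1, RRM1, GINS2, MCM4, MCM5 and MCM6, lay between -0.27 (CCNE1 with PFOA) and 0.03 (GINS2 with PFDS).

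Among the G2/M genes, MKI67 and PLK1 had the smallest p-values. MKI67, which encodes the chromosome-coating protein Ki-67 present in cycling cells, was at 876, 874 and 819 CPM in the controls, 627, 756 and 674 with PFOA, 662, 717 and 732 with PFOS and 715, 735 and 742 with PFDA. It was at 844, 718 and 899 with PFDS, 779, 668 and 777 with 8:2 FTS and 752, 704 and 692 with 8:2 FTOH. Apart from the PFDS group, whose replicates 1 and 3 lie among or above the controls, every compound library was below every control. The log2 fold change was -0.32 ± 0.082 with PFOA (edgeR adjusted p = 0.145), -0.28 with PFOS, -0.26 with 8:2 FTOH, -0.23 with PFDA, -0.21 with 8:2 FTS and -0.06 with PFDS.

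PLK1, the kinase that drives centrosome maturation and chromosome separation and whose promoter above holds a CHR element, was at 58.4, 61.4 and 55.3 CPM in the controls and 42.6, 42.8 and 45.2 with PFOA. It was at 49.5, 51.7 and 52.4 with PFOS, 51.7, 48.5 and 59.2 with PFDA and 52.9, 59.2 and 62.7 with PFDS. With the fluorotelomers it was at 57.5, 60.3 and 50.1 (8:2 FTS) and 55.4, 60.4 and 53.1 (8:2 FTOH). The 3 PFOA libraries were the lowest of the 21, and the PFOS libraries were also all below the controls, while the other groups overlap them. The log2 fold change with PFOA was -0.42 ± 0.089 (95% interval -0.60 to -0.24, edgeR adjusted p = 0.0661), against -0.19 with PFOS, -0.13 with PFDA, -0.06 with 8:2 FTS, -0.05 with 8:2 FTOH and -0.0001 with PFDS. PLK1 was called with PFOA by edgeR when control replicate 3 was left out (adjusted p = 0.0155), against 0.531% of all genes tested.

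**Figure D4:**
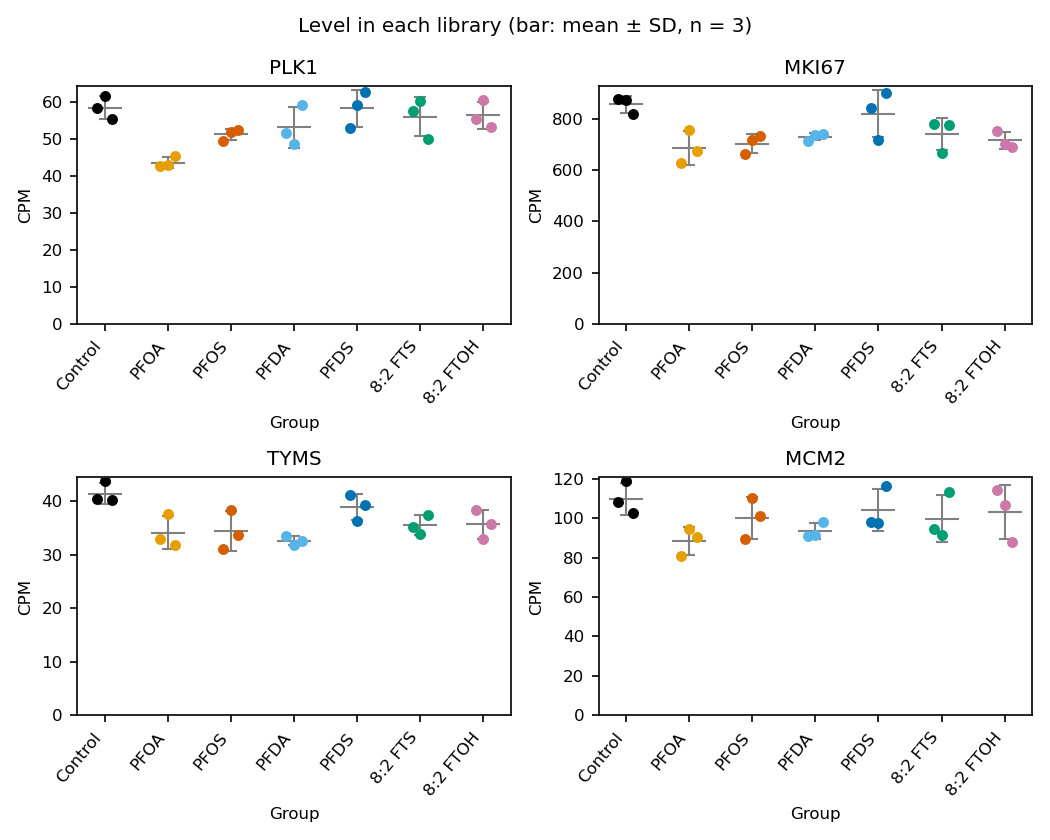
CPM of PLK1, MKI67, TYMS and MCM2 in each of the 21 libraries (points; grey bars: mean ± SD, n = 3), with each axis starting at 0. The PLK1 values of the 3 PFOA libraries, from 42.6 to 45.2, are below the other 18, and MKI67 and TYMS are lower than the controls in every group but PFDS; no difference passed the test.

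The mitotic cyclin and kinase pair stayed close to control. CDK1 was at 107, 121 and 112 CPM in the controls, 127, 118 and 112 with PFOA, 109.8, 105 and 109 with PFOS and 103, 106 and 112 with PFDA. It was at 113, 114 and 115 with PFDS, 103, 90.9 and 105 with 8:2 FTS and 126, 93.4 and 104 with 8:2 FTOH. Only the 8:2 FTS libraries were all below the controls, at a log2 fold change of -0.19. Its partner CCNB1 was at 82.3, 89.9 and 81.03 CPM in the controls, 78.7, 84.9 and 79.3 with PFOA, 74.4, 82.9 and 79.4 with PFOS and 76.6, 77.98 and 82.5 with PFDA. Values were 75.4, 81.8 and 88.9 with PFDS, 76.4, 74.03 and 85.9 with 8:2 FTS and 83.6, 72.2 and 76.5 with 8:2 FTOH. Every CCNB1 group overlaps the controls, and the estimates ran from -0.13 to -0.04.

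TOP2A was at 489, 570.5 and 582 CPM in the controls, 564, 571 and 538 with PFOA, 499, 510.0 and 493 with PFOS and 493, 528 and 537 with PFDA. It was at 509, 515 and 603 with PFDS, 509.6, 474 and 508 with 8:2 FTS and 538, 463 and 480.0 with 8:2 FTOH. All groups overlap the controls, which themselves run from 489 to 582, and the estimates ran from -0.15 to 0.03. CENPE, the motor that carries chromosomes to the spindle equator, was at 133, 149 and 147 CPM in the controls, 139.9, 149 and 126 with PFOA, 129, 125 and 119 with PFOS and 116, 146 and 111 with PFDA. Values were 121, 124 and 128 with PFDS, 125, 116 and 116 with 8:2 FTS and 122, 109 and 129 with 8:2 FTOH. The PFOA and PFDA groups overlap the controls, and all libraries of the other 4 compounds were below them. The smallest p for CENPE was with 8:2 FTS (-0.26 ± 0.083, edgeR adjusted p = 0.319).

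The rest of the mitotic genes ranged over small values. TPX2, which nucleates spindle microtubules, had estimates from -0.26 to -0.15, CENPF, a kinetochore protein gene, from -0.22 to -0.06, and BIRC5 (survivin), a part of the chromosomal passenger complex, from -0.24 to -0.11. Apart from PFDS replicate 3, at 172 CPM, every compound library was below every control for TPX2 (159 to 164 CPM in the controls). FOXM1, which encodes the transcription factor of the G2/M program, had -0.25 with PFOA, -0.23 with PFOS and -0.21 with PFDA, and -0.01 with PFDS; it shares 15.9% of its exon length with ITFG2. TTK, a spindle checkpoint kinase gene, was at 0.13 with PFOA and -0.19 with 8:2 FTOH. CDC20, the activator of the complex that ends mitosis, is named after its values were seen: it was the member with the most estimates above 0, at -0.02 with PFOA and 0.03 to 0.09 with the other 5 compounds. The checkpoint gene BUB1B ran from -0.19 to -0.08, and BUB1, AURKA, AURKB, CCNA2, CCNB2, CDC25C, KIF11, KIF20A and KIF23 lay between -0.20 and 0.04.

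With all 6 compounds against control in 1 contrast, no member passed either, against 0.35% of all genes tested, while 15 of 40 were lower at an unadjusted p under 0.05 and none higher. At that threshold 5.67% of all genes tested were lower and 4.3% higher, and 10.1% of those with at least 10 CPM were lower. Of the 14 neuron markers described below 9 were lower at that threshold, with a median of -0.16. Of 14 tested mesenchymal markers 3 were lower, also with a median of -0.16, and no marker of these 2 lists was higher. The median was -0.11 for S phase genes and -0.09 for G2/M genes, against 0.00 for all genes tested and -0.02 for those of at least 10 CPM. The smallest adjusted p among S phase genes was that of TYMS (-0.24 ± 0.070, edgeR adjusted p = 0.136), followed by RRM2 (-0.17) and CDC6 (-0.19). Among G2/M genes it was that of MKI67 (-0.23 ± 0.061, edgeR adjusted p = 0.0966), followed by TPX2 (-0.20) and CENPE (-0.19). DESeq2 called MKI67 (adjusted p = 0.0349), against 0.788% of all genes tested. With PFDS replicate 3 left out edgeR called MKI67 and TPX2 (adjusted p = 0.023 and 0.0179), and with PFOA replicate 2 left out MKI67 (adjusted p = 0.0476). Those fits called 0.846 and 0.38% of all genes tested, in that order, against 0.35% with all libraries.

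**Figure D5:**
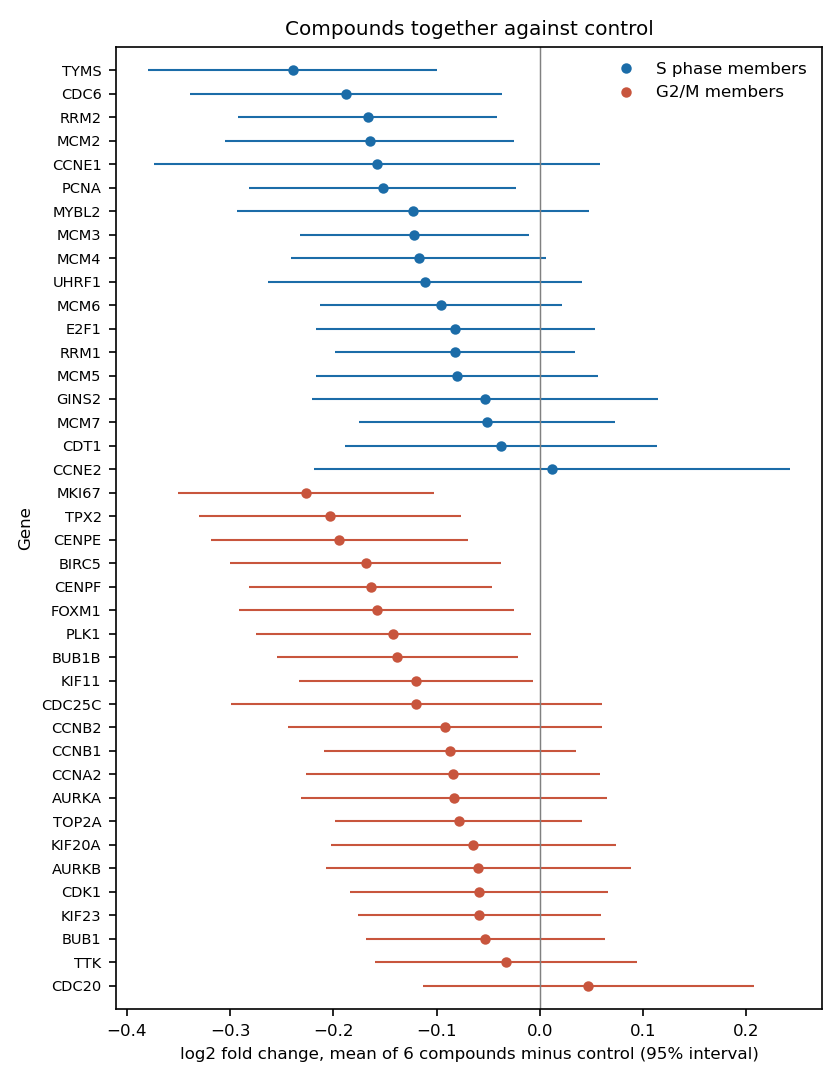
log2 fold change of each of the 40 genes, mean of the 6 compound groups minus control, with its 95% interval; S phase genes in blue, G2/M genes in red, each sorted. The estimates of 38 genes are below 0 and those of CCNE2 and CDC20 above it, and TYMS (-0.24) and MKI67 (-0.23) are lowest in their class.

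In the test for any difference among the 7 groups no member passed, against 0.0322% of all genes tested. At an unadjusted p under 0.05 were 2 of 18 S phase genes (11.1%), TYMS and MCM2, and 6 of 22 G2/M genes (27.3%), PLK1, MKI67, CENPE, TTK, FOXM1 and CENPF, against 5.91% of all genes tested. On the lists described below the same held for 5 of 14 neuron markers (35.7%) and 10 of 55 other G2/M genes (18.2%). It held for 2 of 52 other S phase genes (3.85%). The smallest values among the members were those of PLK1 (edgeR adjusted p = 0.177) and MKI67 (edgeR adjusted p = 0.323). DESeq2 called both (its likelihood ratio test over the 7 groups), against 0.462% of all genes tested.

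Compounds were compared with each other in 7 pairs, all at 30 µM and 24 h, and no member passed in any of them by edgeR or by DESeq2. At an unadjusted p under 0.05, PFDA against PFOA had 1 member above 0 and 1 below (2.93% of all genes in either direction), PFDS against PFOS 3 above (4.37%), PFOS against PFOA 2 above and 2 below (4.9%), PFDS against PFDA 4 above (5.59%) and 8:2 FTS against PFDS 2 below (4.1%). The other pairs, 8:2 FTS against 8:2 FTOH and against PFOS, had none, against 3.26 and 2.86% of all genes. Of all genes tested 0% passed in 6 of the pairs and 0.00402% with PFDS against PFOS. For chain length among the carboxylic acids, the estimate of PLK1 with the longer PFDA minus that with PFOA was 0.29 ± 0.090 (95% interval 0.11 to 0.47, edgeR adjusted p = 1.0), and all 3 PFDA libraries were above the PFOA libraries; TTK was at -0.18, GINS2 at -0.17, CENPE at -0.16, RRM1 at -0.14 and MCM3 at -0.10. For chain length among the sulfonic acids, 37 of 40 estimates were above 0 with PFDS against PFOS, with a median of 0.07 in both classes, and the smallest p was that of MKI67 (0.22, 95% interval 0.06 to 0.39, edgeR adjusted p = 0.999). FOXM1 was at 0.23, PLK1 at 0.19 and TYMS at 0.18 in that pair. The 3 estimates below 0 became 15 without PFDS replicate 3 and 13 without PFOS replicate 1. In the same pair 51.1% of all genes tested were below 0, and 45.5% of those with at least 10 CPM.

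For the head group, PFOS against PFOA gave 0.23 for PLK1 (95% interval 0.05 to 0.41, edgeR adjusted p = 0.958), 0.23 for CDT1, -0.20 for TTK, -0.16 for KIF23 and -0.29 for CCNE2. PFDS against PFDA gave 33 of 40 estimates above 0, with TYMS at 0.25 (95% interval 0.06 to 0.44, edgeR adjusted p = 0.890), FOXM1 at 0.21 and MKI67 at 0.17. The 7 estimates below 0 became 17 without PFDS replicate 3. In the same pair 50.4% of all genes tested were below 0, and 38.7% of those with at least 10 CPM. Between the fluorotelomers, 8:2 FTS against 8:2 FTOH, the estimates ran from -0.11 to 0.13, and no member had an unadjusted p under 0.05. Against PFOS, 8:2 FTS also gave none, with PLK1 at 0.13 and CDK1 at -0.12. Against PFDS it gave 36 of 40 estimates below 0, with CDK1 at -0.20 and CCNA2 at -0.22, and 25 of 40 without PFDS replicate 3 or 26 without 8:2 FTS replicate 2. In the same pair 49.8% of all genes tested were below 0, and 56.6% of those with at least 10 CPM. Intervals of these differences reached a median of 0.18 to 0.19 to either side of the estimate for S phase genes and 0.17 for G2/M genes, so the intervals allow differences of about that size between compounds that are estimated at 0.

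Other genes of the cycle, from lists that exclude the 40, were tested in the same fit. None of 52 other S phase genes, 55 other G2/M genes, 26 tested genes of G1 control or 11 CDK inhibitors and antiproliferative genes passed with any compound or with the 6 together by edgeR. With the 6 together, 11 other S phase genes, 19 other G2/M genes, 1 gene of G1 control and 0 CDK inhibitors were lower at an unadjusted p under 0.05, and 2 other S phase genes were higher, against the 5.67% of all genes lower and 4.3% higher given above. DESeq2 called 2 of the other G2/M genes with the 6 together (SMC4 and the kinetochore gene NDC80) and 1 with PFOA (INCENP), and no gene of these lists in the other comparisons with control. Of all genes tested it called 0.788% with the 6 together and 0.514% with PFOA. The median of the other G2/M genes was -0.06 with PFOA, -0.12 with PFOS, -0.12 with PFDA, -0.06 with PFDS, -0.13 with 8:2 FTS and -0.11 with 8:2 FTOH. That of the other S phase genes was -0.05, -0.11, -0.10, -0.06, -0.12 and -0.07 in the same order. The smallest p among them with the 6 together was that of SMC4, a condensin gene that compacts mitotic chromosomes (-0.22, edgeR adjusted p = 0.0634). With PFOA the replication genes RFC3 and RAD51AP1 had estimates above 0, at 0.24 and 0.28 (edgeR adjusted p = 0.275 and 0.320), while INCENP, of the passenger complex, had -0.32 (edgeR adjusted p = 0.149). Among the genes that hold cells in G1, the CDK inhibitor gene CDKN1A (p21) had 0.18 with PFOS and the antiproliferative gene TOB1 0.30 with PFDS (edgeR adjusted p = 0.755 and 0.461), and the median of the 11 lay between -0.03 and 0.08. The cyclin D1 gene CCND1, which starts the cycle, had -0.21 with PFOA and PFDA (edgeR adjusted p = 0.423 and 0.542).

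Markers of cell type were summed in the same libraries. The 14 neuron markers summed to 5522 to 5810 CPM in the controls, above the range of every compound group except 2 that reach into it (4859 to 5543 with PFOA, 4934 to 5692 with PFDS); the others ran from 4800 to 5268. Of those markers GAP43, a growth cone protein gene, fell by 0.34 on the log2 scale with the 6 compounds together (edgeR adjusted p = 0.00978) and the neurofilament gene NEFM fell by 0.43 (edgeR adjusted p = 0.0457). The 17 mesenchymal markers summed to 462 to 501 CPM in the controls and 396 to 451 with PFOA, with PRRX1 at 0 in 20 and YAP1 at 0 in 12 libraries, and the other groups overlap the controls. TWIST1 made up most of that sum, at a mean of 290.5 CPM in the controls and 265.3 with PFOA. The next highest in the controls were THY1 at 61.2, FN1 at 43.9 and VIM at 25.6. The sum of 9 adrenergic markers was 3718 to 4150 CPM in the controls and 3364 to 3715 with PFOA, and the other groups overlap the controls. With PFOA, 11 of 14 neuron markers, 12 of 14 tested mesenchymal markers and 7 of 9 adrenergic markers had negative estimates, and edgeR called none of them. With PFOA DESeq2 called 5 neuron markers and 1 adrenergic marker, GATA3, against 0.514% of all genes tested. It also called GAP43 with PFDA and 8:2 FTS and NEFM with PFDS and 8:2 FTOH. Of the adrenergic markers it called CHGA with PFDS, where it was higher, and CHGB with 8:2 FTOH. With PFOS it called no marker, and with the 6 together GAP43, SYP and NEFM. Of all genes tested 0.0924% were called with PFDA, 0.197% with 8:2 FTS and 0.137% with PFDS. With 8:2 FTOH it was 0.237%, and with the 6 together 0.788%. The part of cell makeup in the values of the 40 genes was not tested.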

How the data were processed

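Total RNA of 21 samples was sequenced, with libraries made with a stranded kit, per the labels' protocols. Per the submitters' processing notes, the authors aligned reads with HISAT2 to hg38 after FastQC, sorted them with SAMtools and counted them with featureCounts, version 2.0.1 per the file headers, without strand options, so that reads in exons shared by genes on either strand were dropped. The deposited file holds raw counts and a gene length in bases, per the file headers, for 62656 genes. The authors' normalized values were not used. DESeq2 appears in the same notes.

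Counts were filtered with filterByExpr of edgeR 4.0.16 (24879 genes left), scaled with TMM and fitted over 21 libraries and 7 groups with edgeR's robust quasi-likelihood model in R 4.3.3, with limma 3.58.1 and DESeq2 1.42.0 for alternatives. Each of the 15 tests (6 compounds, the 6 together, 7 pairs, any difference) was adjusted by Benjamini-Hochberg over all genes tested, at 0.05. CPM and RPKM used TMM; class levels used log2 CPM with a prior count of 2. The biological coefficient of variation was 0.112. The fit was tested on simulated data. Depth was 7680024 to 30429746 counts.

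The members and all lists were chosen with earlier results of these data known. One marker gene is not reported here and was left out of its list's sum. Values in every library are given for MKI67, TOP2A, CDK1, CCNB1, PCNA, MCM2 and CCNE2 and the 3 genes a class with the smallest p over the 7 groups (TYMS, MCM2, CDT1, PLK1, MKI67, CENPE), and fold changes for up to 3 genes a class and 2 genes a list with the smallest p in each comparison; every other member is given by its range. Alternatives were DESeq2 size factors, library size alone, no filter, a stricter filter (mean of 1 CPM and 10 counts in 3 libraries), the DESeq2 test, a fit of the compared groups alone, the replicate number as a block, leaving out each library, leaving out control replicate 3 with 8:2 FTOH replicate 3, and an E2F site of 8 letters. Promoters came from RefSeq (GRCh38.p14), with the first entry of a listed gene used and every entry used for the share over all promoters. Python 3.11.15 drew the plots (matplotlib 3.10.9) and tables (pandas 2.3.3).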

Additional observations from a re-analysis of the deposited data

How the results depend on the processing

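Of 238 recounts of members called under the alternatives, 226 gave the same count as the main fit, 0 in every one of the 15 tests. The exceptions follow. With PFOA, 3 members were called with no filter on low counts (PLK1, MKI67 and MCM2), 2 by DESeq2 and 2 without control replicate 3 and 8:2 FTOH replicate 3 together (PLK1 and MKI67 in both), 1 when only the groups compared were fitted (PLK1), and 0 to 1 with each library left out (PLK1 without control replicate 3, MKI67 without PFOA replicate 2). With the 6 compounds together 1 was called with no filter and 1 by DESeq2 (MKI67), and 0 to 2 with each library left out. For any difference among the groups 2 were called with no filter and 2 by DESeq2 (PLK1 and MKI67). The share of all genes tested that was called differed as well. With PFOA it was 0.351, 0.514, 0.661, 0.337, 0.531 and 0.129% in the fits as listed, against 0.0322% in the main fit. With the 6 together it was 0.624% with no filter and 0.788% by DESeq2, against 0.35%. It was 0.846% without PFDS replicate 3 and 0.38% without PFOA replicate 2. For any difference it was 0.587% with no filter and 0.462% by DESeq2, against 0.0322%. The cause of these differences was not tested. Of 252 recomputed class medians and their differences, 248 moved by less than the spread between replicates. With library size alone the G2/M median was -0.0027 with PFOA and -0.0622 with PFDA. With each library left out the G2/M median ran from -0.137 to -0.0755 with PFDA (highest without control replicate 2) and from -0.184 to -0.0797 with 8:2 FTOH (lowest without 8:2 FTOH replicate 1). Of 868 recomputed fold changes of named members, 852 kept their direction and side of the threshold, 15 moved past it and 1 reversed: CDK1 between 8:2 FTS and 8:2 FTOH, from -0.11 to 0.0195 without 8:2 FTOH replicate 1 (-0.216 to 0.0195 with each library left out). An E2F site of 8 letters (TTTCCCGC, TTTCGCGC, TTTGGCGC or TTTGCCGC) was found in 73.3% of S phase, 5.88% of G2/M and 3.31% of all promoters. It was in 28.6% of the promoters of other S phase genes and 6.38% of those of other G2/M genes. Same-numbered libraries of different groups did not deviate together (63 pairs, correlations of -0.12 to 0.132, median -0.003), and the fit with the replicate number as a block changed no call (0 members in every test) and gave a PFOA S phase median of -0.106. Depth limits most the genes at low counts, and the member with the smallest count, 76, was well above the filter.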
